A study of Homo sapiens with 40 samples.

Results

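The comparison described here is a 10-fold step in the concentration of ONO-AE1-329, which activates EP4, a receptor for prostaglandin E2, from 0.1 nM to 1 nM. Its means and differences come from the 4 libraries labelled 1 nM and the 4 labelled 0.1 nM, 8 of the 40 libraries of the series, and from no vehicle library. The spread behind each p-value was estimated over all 40 libraries in 10 groups. The cells were BEAS-2B, an immortalised human bronchial epithelial line, grown to confluence in serum, kept overnight without serum and treated for 2 h. None of these 8 libraries received RNO (roflumilast N-oxide, an inhibitor of the PDE4 phosphodiesterases). For comparison, the same step in the presence of 1 uM RNO (4 libraries against 4), the next step to 1 uM ONO-AE1-329 (4 libraries) and the vehicle (4 libraries) were used. The groups that entered only the spread were RNO alone, 1 uM ONO-AE1-329 with RNO, and 100 nM vilanterol, a bronchodilator, without and with RNO (4 libraries each). No label ties a replicate to a culture of its own. The p-values therefore rest on the variation among these samples, and part or all of it may be technical.

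EP4 is coupled to the G protein Gs. Its activation stimulates adenylyl cyclase, cyclic AMP rises, protein kinase A is released from its regulatory subunits, and the kinase phosphorylates CREB and related factors bound at cAMP response elements (CRE) in promoters. Genes of this pathway that are induced within hours include the NR4A orphan nuclear receptors and, as a form of feedback, phosphodiesterases that break cyclic AMP down. In the airways, agents that raise cyclic AMP are studied as bronchodilators and modulators of inflammation.

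Of the 12591 genes tested, 40 passed limma's test at a Benjamini-Hochberg adjusted p under 0.05, which is 0.318% of them. At 1 nM 37 genes rose (0.294%) and 3 fell (0.0238%). On the log2(value + 1) scale the highest changes were those of the non-coding RNA LINC00473 (10.7 ± 3.34 to 27 ± 2.55 normalised TPM, SD, n = 4), NR4A3 (1.66 ± 0.679 to 5.32 ± 0.708), RGS2 (6.36 ± 1.25 to 15.6 ± 3.84), ZNF331 (7.43 ± 0.884 to 17.3 ± 2.14) and TM4SF1 (48.2 ± 2.4 to 98.5 ± 5.66). The unit is TPM, an abundance scaled for transcript length and sequencing depth, adjusted between libraries by the authors. By the ratio of means NR4A3 (3.21-fold) was followed by NR4A2 (3.04-fold, from 0.834 ± 0.164 to 2.53 ± 0.283). The folds were modest: the ratio of means of the 37 genes lay between 1.14 and 3.21 with a median of 1.43, and 7 genes reached 2-fold. TINAGL1, PSRC1 and HJURP were the 3 genes that fell, by 0.36, 0.25 and 0.26 on the log2 scale, which with the added 1 understates changes of genes at low levels. In all 40 the lowest library of 1 group lay above the highest of the other (324 of all genes tested, 2.57%, with 1.59% higher and 0.985% lower). Groups without overlap must differ with the same sign in 4 of 4 pairs of equally numbered libraries, so the pairs add nothing here. Of all genes, 10.1% were higher in all 4 pairs and 8.2% lower. With the replicate number as a block in the model 152 genes were called (1.21%), 112 higher (0.89%) and 40 lower (0.318%), and all 40 were among them. Of the 112 genes called only with the block, 29 were also called, and 83 were not, when the blocked model was fitted to the 8 libraries alone. An unadjusted p under 0.05 was reached by 413 genes (3.28%).

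**Figure D1:**
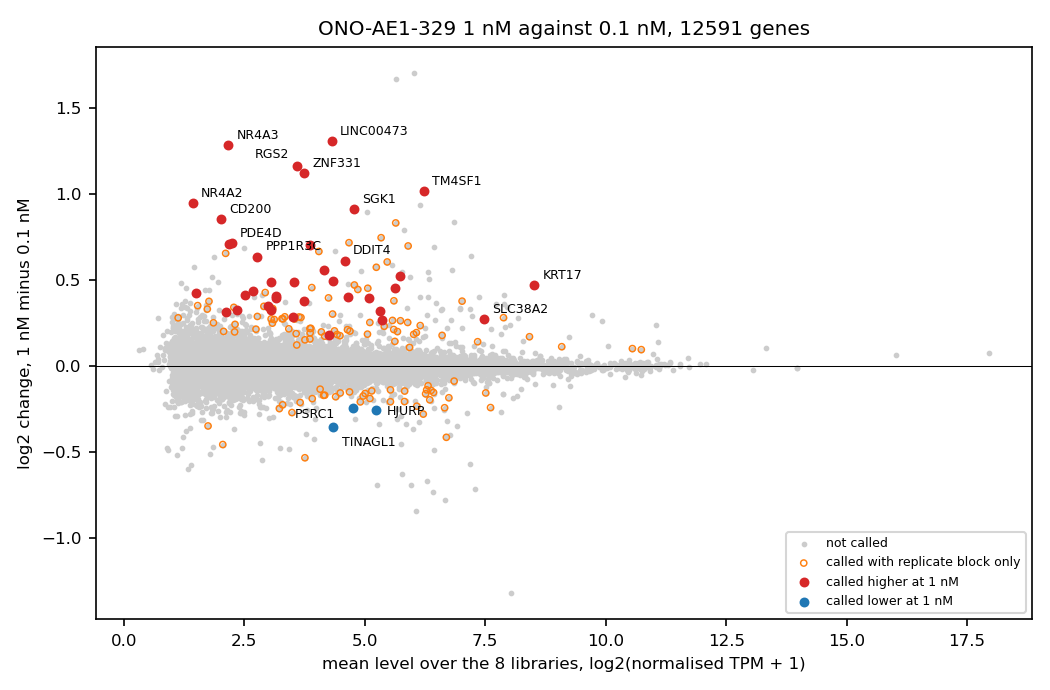
Change over the step against level for the 12591 genes tested, with the mean of the 8 libraries as log2(normalised TPM + 1) on the x axis and the log2 change, 1 nM minus 0.1 nM, on the y axis. Red and blue points are the 37 genes that rose and the 3 that fell, and orange circles are the 112 genes called only with the replicate block. The largest changes of all, among the grey points, belonged to short RNAs such as MIR6840, which was not called.

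The count changed when single libraries were left out, which also lowers the sample size, and with the spread that was used. Without replicate 3 at 0.1 nM 26 genes were called, and without replicate 2 at 1 nM 25. When only the 8 libraries of the comparison were fitted, 19 genes were called, 17 of them among the 40, and 23 when every library was rescaled to the same total. Of the 40 genes, 21 were called whichever of the 8 libraries was left out, and 14 were called in every alternative run: LINC00473, NR4A3, NR4A2, RGS2, ZNF331, PDE4D, TM4SF1, CD200, PPP1R3C, TCF21, BCL7A, CHMP1B, ITPRIP and WDR66.

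BEAS-2B markers were compared between the groups before the genes were read. The summed level of 9 epithelial and basal markers present in the file (of 14 listed) lay between 959 and 1080 at 0.1 nM and between 969 and 1180 at 1 nM. CDH1 and EPCAM, which define epithelia, were low: CDH1 stood at 0.79 at 0.1 nM and 0.75 at 1 nM, and EPCAM at 0.263 and 0.297. KRT5, KRT14, KRT15, KRT19 and TP63 were not analysed here. Of 11 mesenchymal markers 9 were present, with sums of 2480 to 2710 and 2460 to 2700, mostly vimentin. Sums of 2 of 9 leukocyte markers (12.7 to 15.1 and 11 to 14.1) and of 3 of 7 endothelial markers (0.403 to 0.566 and 0.517 to 0.614) were small in both groups, and those of 2 of 9 ciliated and secretory markers were 644 to 672 and 626 to 665, almost all of it TUBB4B. In a bulk sample fewer cells that make a transcript and less of it per cell cannot be told apart. The totals of these 8 libraries lay between 956888 and 1010161, and since no read counts were analysed the sequencing depth is unknown. Replicate 3 of the vehicle had the highest total of the 40 libraries (1091466) and the lowest median (8.47). Its deviations from the group mean had an SD of 0.209, against 0.1 to 0.126 in the 8 libraries. It enters the spread behind each p-value and the response to 1 uM over vehicle.

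Among 26 tested genes known to respond to cAMP and CREB, 8 rose (0.294% of all genes tested rose), none fell, and 14 were higher without overlap (1.59% of all genes). The median log2 change of the list was 0.382, against 0.001 over all genes tested, and 23 of the 26 were above 0 (51.1% of all genes). The list was chosen with earlier results of these data known, which may favour such counts, so they are description only. The 8 that rose were NR4A3, NR4A2, LINC00473, ZNF331, RGS2, PDE4D, SGK1 and BDNF. With the replicate block 11 were called, all higher (0.89% of all genes tested), PDE4B, CRISPLD2 and NFIL3 being added. None of these 3 was called when the blocked model was fitted to the 8 libraries alone (limma adjusted p = 0.238, 0.205 and 0.355).

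NR4A3, an orphan nuclear receptor induced early by many stimuli, read 1.34, 2.02, 0.874 and 2.39 in replicates 1 to 4 at 0.1 nM and 4.71, 6.33, 5.22 and 5.02 at 1 nM. Every library at 1 nM was therefore above every library at 0.1 nM, and the lower group had the wider relative spread. The fold of means was 3.21 (log2 change 1.28 ± 0.178 SE, limma adjusted p = 4.58e-05). NR4A2, its close relative, read 0.71, 0.914, 0.685 and 1.03 at 0.1 nM and 2.67, 2.71, 2.11 and 2.64 at 1 nM, a 3.04-fold difference (log2 change 0.95 ± 0.177, limma adjusted p = 0.00449). NR4A1, the third member of the family, read 10.5, 18.3, 11.9 and 20.3 against 20.5, 31.6, 22.6 and 22.3. These groups did not overlap either, by a narrow margin between 20.3 and 20.5, and NR4A1 was not called (log2 change 0.67 ± 0.215, limma adjusted p = 0.51, and 0.0562 with the replicate block).

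LINC00473, a non-coding RNA known as a CREB-induced transcript, read 6.57, 12.3, 9.6 and 14.2 at 0.1 nM and 24, 30.2, 27.1 and 26.6 at 1 nM. It had the highest log2 change of the called genes, 1.30 ± 0.175 (2.53-fold, limma adjusted p = 3.75e-05). ZNF331, a zinc finger protein gene, read 7.29, 8.58, 6.43 and 7.44 against 17.3, 19.9, 14.7 and 17.5, which is 2.33-fold (log2 change 1.12 ± 0.138, limma adjusted p = 1.19e-05). In both genes the lowest library at 1 nM stood well clear of the highest at 0.1 nM.

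Regulators that act on the pathway itself were represented by PDE4D and RGS2. PDE4D, which hydrolyses cyclic AMP and is a target of RNO, read 2.08, 2.74, 2.56 and 2.92 at 0.1 nM and 4.13, 5.26, 4.77 and 5.25 at 1 nM (1.88-fold, log2 change 0.71 ± 0.0993, limma adjusted p = 4.58e-05). PDE4B read 1.83, 1.6, 1.27 and 1.47 against 2.32, 1.92, 2.34 and 2.35, and was called only with the replicate block (limma adjusted p = 0.176, 0.00561 with the block, and 0.238 with the block in the 8 libraries alone). PDE4D was the single gene called among 7 tested phosphodiesterases, whose median log2 change was 0.034 (0.318% of all genes tested were called). PDE4A had a log2 change of -0.05 (limma adjusted p = 1), and PDE4C was too low to enter the test. RGS2, which speeds the inactivation of G proteins of the Gq class, read 8.04, 6.25, 5.02 and 6.12 at 0.1 nM and 20.5, 14.9, 11.2 and 15.9 at 1 nM. Replicate 1 was the highest and replicate 3 the lowest of its group at both concentrations (2.45-fold, log2 change 1.16 ± 0.22, limma adjusted p = 0.00524). It was the only one of 11 tested RGS genes called higher (0.294% of all genes tested), and 3 of the 11 had a log2 change above 0 (51.1% of all). RGS4 read 4.17, 3.87, 3.75 and 3.31 against 2.94, 2.85, 2.37 and 1.83 and was called, as lower, only with the replicate block (limma adjusted p = 0.195, 4.79e-05 with the block, and 0.0407 with the block in the 8 libraries alone).

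SGK1, a kinase that regulates ion transport and is also induced by glucocorticoids, read 17.2, 17.4, 19.5 and 17.3 at 0.1 nM and 40.6, 36, 34.3 and 28 at 1 nM (1.94-fold, log2 change 0.91 ± 0.191, limma adjusted p = 0.0144). The spread at 1 nM was wide and that at 0.1 nM narrow. SGK1 missed the threshold without replicate 1 at 0.1 nM, or without replicate 1 or 2 at 1 nM (adjusted p = 0.0573 to 0.087). BDNF, a neurotrophin that is made outside the nervous system as well, read 11.9, 15.6, 12.1 and 13.9 against 18.7, 22.2, 17.9 and 21.6 (1.5-fold, log2 change 0.55 ± 0.104, limma adjusted p = 0.00449). Of the other response genes, CREM was at 8.48 ± 1.04 and 7.69 ± 0.539 (adjusted p = 1), PER1 at 11.6 ± 2.57 and 15.1 ± 2.61 (adjusted p = 1), and DUSP1 at 60.3 ± 8.17 and 79.7 ± 9.35 (adjusted p = 0.714), all by limma. The entry that names SIK1 together with its near-identical copy was at 29.2 ± 7.05 and 49.6 ± 13.2, was called only with the replicate block (adjusted p = 1.94e-05, and 0.0128 in the 8 libraries alone) and is uncertain, because reads of the 2 copies could be split.

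**Figure D2:**
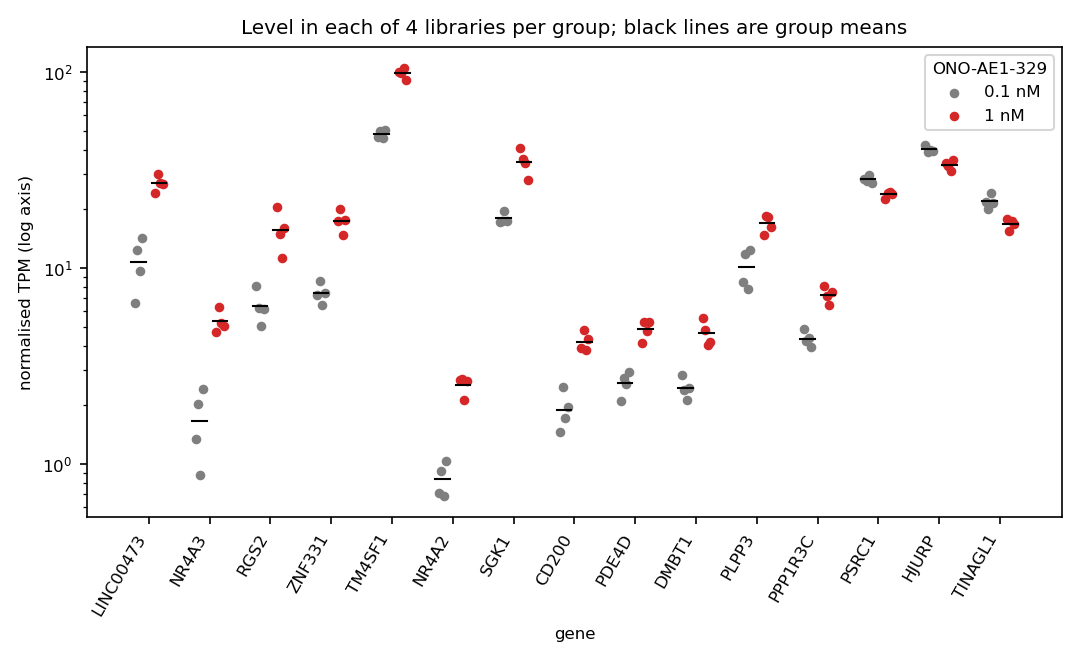
Level of the 12 called genes with the highest log2 changes and of the 3 that fell, in normalised TPM on a log axis. Each point is a library, grey for 0.1 nM and red for 1 nM (4 each), and black lines are group means. In every gene shown the 2 clouds of points do not overlap, with NR4A3 at 0.874 to 2.39 against 4.71 to 6.33.

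The components that carry the signal from receptor to CREB did not pass the test. PTGER4, which encodes EP4, read 1.79, 1.17, 1.02 and 1.35 at 0.1 nM and 1.32, 1.11, 1.28 and 1.18 at 1 nM, with a log2 change of -0.06 and a 95% interval of -0.23 to 0.12 (limma adjusted p = 1). Over the same step with RNO its log2 change was -0.04, and over the next step 0.01. PTGER2 and PTGER3 were under the level tested, and PTGER1 was not analysed here. Of 9 genes for Gs, Gi subunits and adenylyl cyclases, 15 for protein kinase A, Epac and their anchors, and 13 for CREB, its coactivators and SIK kinases, none was called (0.318% of all genes tested were). Their median log2 changes were 0.025, 0.035 and -0.003. Lists this short can hold no call at that share. The entry that names SIK1 with its copy is not among the 13. It was called higher only with the replicate block (limma block adjusted p = 1.94e-05, and 0.0128 in the 8 libraries alone). With the replicate block AKAP12, an anchor of protein kinase A, was called higher (41.3 ± 4.81 to 53.8 ± 5.05, block adjusted p = 0.0135, and 0.0652 in the 8 libraries alone). Of all genes tested 0.89% were called higher with the block.

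The promoters of the genes that rose were read for the CRE, since CREB binds there. The windows run from 250 bases before to 50 after the start of transcription, from RefSeq on GRCh38.p14. Of the 37 genes, 30 had a window, 1 of them by a synonym. The full CRE, TGACGTCA on either strand, was present in 3 of the 30 (10%), CHMP1B, PPM1D and SNRK, against 3.38% of the 9906 windows of all genes tested. The core of the element, TGACG or its reverse complement CGTCA, was present in 13 (43.3% against 35.3%). At least 2 cores were present in 8 (26.7% against 10.4%), and each full CRE holds 2 of them. The serum response element known as the CArG box was in 0 of the 30 (0.989% of all). Of the 112 genes called higher with the replicate block, 86 had a window. Of these windows 33.7% held a core, 6.98% the full CRE, 16.3% at least 2 cores and 3.49% a CArG box. None of the 3 genes that fell held a CRE core. NR4A3 (chr9:99821635-99821934, plus strand) held 4 cores and LINC00473 (chr6:165987990-165988289, minus strand) 2, without a full CRE. Both are shown with the 3 full-CRE genes CHMP1B (chr18:11851163-11851462, plus strand), PPM1D (chr17:60599943-60600242, plus strand) and SNRK (chr3:43286290-43286589, plus strand), because the first pair had the highest changes on the log2(value + 1) scale and the others hold the complete element. Capitals mark CRE cores and the full CRE, 5′ to 3′ along the gene's strand.
NR4A3: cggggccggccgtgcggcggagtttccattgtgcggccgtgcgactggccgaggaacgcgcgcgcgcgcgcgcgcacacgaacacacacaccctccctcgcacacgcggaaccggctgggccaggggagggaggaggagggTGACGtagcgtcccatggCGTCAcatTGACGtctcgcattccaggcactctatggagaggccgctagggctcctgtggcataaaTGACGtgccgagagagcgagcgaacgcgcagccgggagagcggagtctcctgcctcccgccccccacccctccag
LINC00473: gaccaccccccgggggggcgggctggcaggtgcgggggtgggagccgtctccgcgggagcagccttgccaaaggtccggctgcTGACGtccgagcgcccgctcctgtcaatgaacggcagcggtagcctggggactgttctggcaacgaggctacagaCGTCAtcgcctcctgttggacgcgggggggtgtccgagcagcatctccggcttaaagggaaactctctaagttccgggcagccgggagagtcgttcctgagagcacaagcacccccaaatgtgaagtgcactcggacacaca
CHMP1B: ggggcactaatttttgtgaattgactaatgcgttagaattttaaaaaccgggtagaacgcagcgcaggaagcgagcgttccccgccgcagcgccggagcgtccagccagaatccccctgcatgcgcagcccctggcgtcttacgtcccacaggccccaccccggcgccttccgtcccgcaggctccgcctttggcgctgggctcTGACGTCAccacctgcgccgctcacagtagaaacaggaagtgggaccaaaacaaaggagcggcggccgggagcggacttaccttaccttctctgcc
PPM1D: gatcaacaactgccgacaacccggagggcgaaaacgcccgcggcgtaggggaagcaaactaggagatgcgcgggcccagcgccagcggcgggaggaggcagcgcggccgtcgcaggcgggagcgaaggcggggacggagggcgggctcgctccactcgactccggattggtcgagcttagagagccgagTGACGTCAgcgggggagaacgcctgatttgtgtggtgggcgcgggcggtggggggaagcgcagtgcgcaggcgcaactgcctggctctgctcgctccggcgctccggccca
SNRK: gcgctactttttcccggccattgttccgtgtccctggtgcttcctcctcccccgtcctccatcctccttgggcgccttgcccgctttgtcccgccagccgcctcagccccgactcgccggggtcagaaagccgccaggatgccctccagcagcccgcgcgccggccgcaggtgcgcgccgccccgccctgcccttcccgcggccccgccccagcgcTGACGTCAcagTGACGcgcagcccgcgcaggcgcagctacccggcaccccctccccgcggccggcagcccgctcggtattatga
The genes with the full element were not those with the largest changes. CHMP1B read 28.8, 29.9, 27 and 28 at 0.1 nM and 38.4, 39, 35.8 and 37.2 at 1 nM (log2 change 0.39), PPM1D 16.3, 17, 17.3 and 17.1 against 18.8, 19.5, 18.8 and 20 (0.18), and SNRK 11.3, 11.4, 9.55 and 9.94 against 13.5, 15.1, 12.8 and 14.5 (0.37). CHMP1B belongs to the ESCRT-III membrane-scission machinery, PPM1D is a phosphatase that opposes p53 signalling, and SNRK is a kinase related to AMPK. A match of letters does not show that a factor was bound. ZNF331, RGS2, CD200, WDR66 and SLC38A2 held 1 core each.

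Proteins of the cell surface and secreted proteins made up a second group of genes that rose, arranged by role after their values were seen. TM4SF1, a membrane protein with 4 membrane-spanning segments, read 46.5, 49.9, 45.7 and 50.6 at 0.1 nM and 100, 98.5, 104 and 90.8 at 1 nM. It had the smallest adjusted p of the comparison (2.04-fold, log2 change 1.02 ± 0.101, limma adjusted p = 1.46e-07). CD200, whose receptor on myeloid cells is inhibitory, read 1.45, 2.45, 1.7 and 1.94 against 3.87, 4.79, 3.8 and 4.3 (2.22-fold, log2 change 0.85 ± 0.119, limma adjusted p = 4.58e-05). CD200 and RGS2 were the 2 of 20 tested negative regulators of inflammatory signalling called higher (0.294% of all genes tested). A log2 change above 0 was found in 11 of the 20 (51.1% of all). DMBT1, a secreted scavenger protein of mucosal surfaces, read 2.83, 2.38, 2.11 and 2.44 against 5.52, 4.78, 4.03 and 4.18. Its change was 1.89-fold (log2 change 0.71 ± 0.136, limma adjusted p = 0.00602, and 0.0506 without replicate 1 at 1 nM).

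ACKR3, a receptor that scavenges the chemokine CXCL12, read 40.3, 46.7, 33.9 and 49.6 at 0.1 nM and 61.1, 68.3, 52.4 and 62.9 at 1 nM. In both groups replicate 3 was the lowest (1.44-fold, limma adjusted p = 0.0266). Secreted ligands showed smaller differences: FGF9 went from 5.94 ± 0.555 to 7.85 ± 0.888 (limma adjusted p = 0.0212), WNT5A from 6.37 ± 0.664 to 8.21 ± 0.623 (0.00602) and TSKU, a small leucine-rich protein, from 9.19 ± 1.04 to 11.4 ± 0.651 (0.0336). FGF9 and BDNF were the genes called among 17 tested growth factors and receptors, whose median log2 change was -0.022 (0.318% of all genes tested were called). CD24, a surface glycoprotein, read 22.7, 17.7, 17.1 and 15.2 against 39.9, 30.2, 30 and 22.9. Its equally numbered libraries ranked alike at both concentrations, and it was called only with the replicate block (limma adjusted p = 0.065, 4.82e-11 with the block, and 0.00268 with the block in the 8 libraries alone). Some calls were lost when any 1 of several of the 8 libraries was left out. These were ACKR3 (5 libraries, limma adjusted p = 0.0798 to 0.267), FGF9 (4 libraries, 0.0685 to 0.206), TSKU (6 libraries, 0.0528 to 0.239) and WNT5A (2 libraries, 0.0515 to 0.0528).

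Enzymes and transporters of metabolism formed another group. PPP1R3C, which targets protein phosphatase 1 to glycogen, read 4.87, 4.2, 4.36 and 3.95 at 0.1 nM and 8.07, 7.14, 6.48 and 7.49 at 1 nM (1.68-fold, log2 change 0.63 ± 0.101, limma adjusted p = 0.000578). Its relative PPP1R3B went from 2.86 ± 0.139 to 3.79 ± 0.227 (limma adjusted p = 0.0461), a call that was lost without any 1 of the 8 libraries (0.0745 to 0.227). They were the 2 genes called higher among 13 glucose-sensing and glycogen genes (0.294% of all genes tested). The list had a median log2 change of 0.045, and 10 of the 13 were above 0 (51.1% of all). PLPP3, which dephosphorylates lysophosphatidic acid and other lipid phosphates, read 8.49, 11.7, 7.82 and 12.3 against 14.7, 18.3, 18.2 and 16.2 (1.67-fold, log2 change 0.7 ± 0.128, limma adjusted p = 0.00379). DDIT4, an inhibitor of mTORC1, read 16.6, 17.6, 18.5 and 19 against 29.7, 29.3, 24.8 and 27.8. The 2 groups of DDIT4 were far apart in these 8 libraries, yet the adjusted p was 0.0468 and lay between 0.0516 and 0.191 without any 1 of them, by limma. Fitted to the 8 libraries alone, the limma adjusted p was 0.00736 for DDIT4 and 0.011 for PPP1R3C. For PPP1R3B and PLPP3 it was 0.112 and 0.134 there (0.0717 and 0.0726 with the block).

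Smaller differences in this group were found for CYP26B1, which degrades retinoic acid (6.68 ± 0.728 to 9.17 ± 0.918, limma adjusted p = 0.0122), and CHSY1, a chondroitin synthase (20.7 ± 1.93 to 27.6 ± 2.5, 0.00379). GPCPD1, a glycerophosphocholine phosphodiesterase, went from 3.49 ± 0.546 to 4.6 ± 0.363 (limma adjusted p = 0.0122), and the carboxylesterase CES3 from 1.42 ± 0.124 to 2.24 ± 0.159 (0.00937). SLC38A2, a neutral amino acid transporter, went from 160 ± 5.1 to 194 ± 12.2 (limma adjusted p = 0.0443). Of these, CYP26B1 and GPCPD1 lost the call without any 1 of 3 libraries (adjusted p = 0.063 to 0.135, and 0.0586 to 0.142), and SLC38A2 without any 1 of 7 (0.0537 to 0.289).

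Transcription factors and chromatin proteins that rose were TCF21, IRX1, ZNF620 and BCL7A, besides the NR4A genes and ZNF331. TCF21, a basic helix-loop-helix factor, read 6.46, 5.84, 5.9 and 5.3 at 0.1 nM and 8.44, 8.89, 8.61 and 8.47 at 1 nM (1.46-fold, log2 change 0.48 ± 0.0892, limma adjusted p = 0.00409). BCL7A, a subunit of SWI/SNF complexes, read 15.5, 17.1, 13.7 and 16.6 against 23.4, 23.4, 21.2 and 21.8 (1.43-fold, log2 change 0.49 ± 0.0634, limma adjusted p = 2.15e-05). Both were tight within groups, so that changes of less than 1.5-fold had small adjusted p-values. The homeobox gene IRX1 went from 3.92 ± 0.295 to 5.56 ± 0.433 (limma adjusted p = 0.0443, lost without any 1 of 7 libraries, 0.0605 to 0.207), and ZNF620 from 6.66 ± 0.613 to 9.05 ± 0.838 (0.0198, lost without any 1 of 4, 0.0979 to 0.167).

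The remaining genes that rose act in signalling, cell death, membranes and the cytoskeleton. BCL2L11, which encodes the pro-apoptotic protein BIM, read 10.6, 8.16, 7.88 and 7.88 at 0.1 nM and 14.7, 11.8, 12.4 and 11 at 1 nM. Replicate 1 was the highest at both concentrations (1.45-fold, limma adjusted p = 0.0146, and 0.0624 to 0.127 without any 1 of 4 libraries). LATS2, a kinase of the Hippo pathway and itself a YAP target, read 39.5, 45.6, 37.3 and 39.9 against 53.8, 61.6, 50.1 and 57.7 (1.38-fold, limma adjusted p = 0.00446). It was the single gene called among 15 YAP and TEAD targets, whose median log2 change was -0.002 (0.318% of all genes tested were called). KRT17, a keratin of stressed and basal epithelia, read 309, 337, 247 and 328 against 427, 471, 405 and 380 (1.38-fold, limma adjusted p = 0.0115). Without replicate 3 at 0.1 nM or replicate 2 at 1 nM KRT17 was not called (adjusted p = 0.135 and 0.106). WDR66, a protein of cilia and flagella, read 32, 34.3, 34.1 and 37.5 against 42, 44.5, 42.5 and 43.5 (1.25-fold, log2 change 0.32 ± 0.0428, limma adjusted p = 3.75e-05). PTP4A1, a tyrosine phosphatase, went from 36.4 ± 2.67 to 43.9 ± 0.465 (limma adjusted p = 0.00176) and ITPRIP, which binds the inositol trisphosphate receptor, from 4.4 ± 0.287 to 6.3 ± 0.37 (0.00602).

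Of the genes that fell, PSRC1 and HJURP act in mitosis: PSRC1 binds spindle microtubules, and HJURP deposits the centromeric histone CENP-A. PSRC1 read 28.4, 27.8, 29.7 and 27.2 at 0.1 nM and 22.4, 24, 24.4 and 23.8 at 1 nM (log2 change -0.25 ± 0.0482, limma adjusted p = 0.00694). HJURP read 42.5, 39.1, 39.9 and 39.3 against 34.1, 32.9, 31.2 and 35.4 (log2 change -0.26 ± 0.054, limma adjusted p = 0.0131). Both changed modestly, to 0.837 and 0.831 of their level, with all libraries at 1 nM below those at 0.1 nM. PSRC1 missed the threshold without replicate 3 at 0.1 nM or replicate 1 at 1 nM (adjusted p = 0.0528 to 0.0605), and HJURP without any 1 of 3 libraries (0.0691 to 0.107). TINAGL1, a matrix protein, read 21.6, 20, 24 and 21.5 against 17.7, 15.4, 17.3 and 16.7 (log2 change -0.36 ± 0.0611, limma adjusted p = 0.00176). None of 29 cell cycle genes was called (0.318% of all genes tested were). With the replicate block CCND1, PLK1 and AURKA of that list were called lower (0.318% of all genes tested) and PLK2 higher (0.89%). PLK1 was at 80 ± 2.46 and 71.3 ± 2.97 (block adjusted p = 0.00279) and AURKA at 113 ± 6.76 and 99.2 ± 4.93 (0.00149). With the block in the 8 libraries alone AURKA and PLK2 were called (adjusted p = 0.0236 and 0.0175), and PLK1 and CCND1 were not (0.076 and 0.354).

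Of the 40 genes, 19 lost the call without 1 library or another, with limma adjusted p-values between 0.0506 and 0.289. Leaving out a library also lowers the sample size. DDIT4 and PPP1R3B lost the call whichever of the 8 was left out, with log2 changes of 0.58 to 0.66 and 0.28 to 0.33. Below, needed means only that the adjusted p passed 0.05 without that library. At 0.1 nM, replicate 1 was needed for ACKR3, DDIT4, HJURP, IRX1, PPM1D, PPP1R3B, SGK1, SLC38A2, SNRK, TSKU and ZNF620. Replicate 2 was needed for BCL2L11, DDIT4, IRX1, PPP1R3B, SLC38A2 and WNT5A, replicate 3 for ACKR3, BCL2L11, CYP26B1, DDIT4, FGF9, GPCPD1, IRX1, KRT17, PPP1R3B, PSRC1, SLC38A2, SNRK, TSKU and ZNF620, and replicate 4 for BCL2L11, DDIT4, IRX1, PPP1R3B, SLC38A2, SNRK and TSKU. At 1 nM, replicate 1 was needed for ACKR3, BCL2L11, DDIT4, DMBT1, FGF9, GPCPD1, PPP1R3B, PSRC1, SGK1, SLC38A2, SNRK, TSKU and WNT5A. Replicate 2 was needed for ACKR3, CYP26B1, DDIT4, FGF9, GPCPD1, HJURP, IRX1, KRT17, PPM1D, PPP1R3B, SGK1, SLC38A2, SNRK, TSKU and ZNF620. Replicate 3 was needed for DDIT4, HJURP, IRX1, PPP1R3B, SLC38A2 and TSKU, and replicate 4 for ACKR3, CYP26B1, DDIT4, FGF9, IRX1, PPM1D, PPP1R3B, SNRK and ZNF620. The other 21 genes kept their call, among them all of the 5 with the highest log2 changes.

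Immediate early genes, which serum and growth factors induce through MAP kinases, did not pass the test, 0 of 24 (0.318% of all genes tested did). Their median log2 change was -0.063. EGR1 read 16.4, 17.5, 10.7 and 15.4 at 0.1 nM and 10.8, 11.4, 10.4 and 7.34 at 1 nM. Each replicate was lower at 1 nM, while the groups overlapped through replicate 3 at 0.1 nM (log2 change -0.54 ± 0.155, limma adjusted p = 0.268, and 0.00569 with the block). FOSL1 read 123, 119, 100 and 125 against 102, 87.5, 88.3 and 71.9, and JUN 84.4, 84.2, 77.9 and 74.2 against 72.8, 65.2, 69.5 and 56.3. With the replicate block these 3 of the 24 were called lower (FOSL1 adjusted p = 0.00283, JUN 0.000668) and none higher. Over all genes tested the block called 0.318% lower and 0.89% higher. In the 8 libraries alone none of the 3 was called with the block (EGR1 adjusted p = 0.291, FOSL1 0.213, JUN 0.0676). FOS was at 2 ± 0.54 and 1.92 ± 0.235 (limma adjusted p = 1). The promoter of EGR1 (chr5:138465229-138465528, plus strand) is printed because it holds 2 CArG boxes together with 2 CRE cores, all in capitals.
EGR1: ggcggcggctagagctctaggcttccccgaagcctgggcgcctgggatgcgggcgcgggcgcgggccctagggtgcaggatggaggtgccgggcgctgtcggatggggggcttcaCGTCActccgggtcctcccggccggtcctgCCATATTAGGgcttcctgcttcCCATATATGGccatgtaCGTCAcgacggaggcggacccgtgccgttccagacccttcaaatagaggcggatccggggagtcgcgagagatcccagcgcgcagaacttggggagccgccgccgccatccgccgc
Among 13 MAP kinase phosphatases and Sprouty genes and 14 ERK-responsive genes none was called (median log2 changes -0.008 and -0.052). DUSP8 was called higher and HMGA1 lower with the block (adjusted p = 0.0106 and 0.0498), and neither was in the 8 libraries alone (0.0717 and 0.162).

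Lists for other processes showed few calls, where 0.318% of all genes tested were called, and 1.21% with the replicate block. Of 12 tested inflammatory cytokines and chemokines none was called (median log2 change 0.004). IL11 read 22.6, 44, 31.5 and 43.7 at 0.1 nM and 56.3, 71.9, 68.2 and 52.3 at 1 nM, without overlap, and was called only with the replicate block (log2 change 0.83 ± 0.204, limma adjusted p = 0.0722, 0.00412 with the block, and 0.14 with the block in the 8 libraries alone). CCL2, at 112 ± 18.3 and 145 ± 14.9, was likewise called only with the block (adjusted p = 0.0291, and 0.371 in the 8 libraries alone). IL6 read 3.64, 5.52, 4.95 and 4.38 against 6.85, 7.16, 5.81 and 5.67 and was not called (limma adjusted p = 1). Of 16 glucocorticoid-responsive genes SGK1 and DDIT4 were called, with a median log2 change of 0.104, and with the block also CRISPLD2, KLF9 and CEBPD. Of these 3, CEBPD was called with the block in the 8 libraries alone (adjusted p = 0.0166, against 0.224 for KLF9). FKBP5 and TSC22D3, the classical members of that list, were at 20.1 ± 0.941 and 19.5 ± 1.01, and at 3.64 ± 0.361 and 3.71 ± 0.394. None was called of 16 clock, 16 cholesterol synthesis, 14 interferon-stimulated, 5 prostanoid, 18 TGF-beta and 28 ribosomal protein genes. Their median log2 changes were 0.038, -0.001, -0.112, 0.006, 0.007 and 0.001. Of the interferon-stimulated genes 1 of 14 lay above 0. With the block TGFBR1 was called higher in the TGF-beta list, NFIL3 in the clock list, ARRDC3 in the glycogen list and NUAK2 in the YAP list, where AJUBA and the coagulation factor gene F3 were called lower. Of 18 unfolded protein and ATF4 response genes DDIT4 was called (median log2 change 0.014), and with the block also the amino acid transporter SLC7A5, higher, and PPP1R15A, lower. Of these 8 genes, ARRDC3, SLC7A5 and PPP1R15A were called with the block in the 8 libraries alone (adjusted p = 0.0223, 0.00973 and 0.0365), and the others were not (0.197 to 0.376).

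The same step was measured a second time in 8 other libraries, all of which received 1 uM RNO. Here limma called 0 genes (377, or 2.99%, had p-values under 0.05 before adjustment, and 11 were called with weights per library). With the replicate block 65 genes were called (0.516%). The direction of the 40 genes was shared: all 37 that rose without RNO had a log2 change above 0 with RNO (49.6% of all genes) and all 3 that fell were below 0 (50.4%). The groups did not overlap in 21 of the 37 (2.28% of all genes did not in either direction, 1.12% were higher) and in 2 of the 3 (1.16% lower). Since the 40 genes were chosen from libraries without RNO, this is a second measurement of their direction. The 152 and 65 genes called with the block had 46 in common, 30.3% of the former and 70.8% of the latter, and all 46 had the same sign, 35 higher and 11 lower.

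The sizes of the change were lower with RNO. The median log2 change of the 37 genes was 0.3 with RNO and 0.47 without, and 36 of the 37 were smaller with RNO. The genes were picked for a large change without RNO, which favours that order. The test of the difference itself called no gene (170 had an unadjusted p under 0.05, 1.35%), and none with the block (398, 3.16%). Of the 40, 14 had an unadjusted p under 0.05. Picking genes by the step without RNO also favours small p-values, here and for the genes below, since its libraries enter the test. In LINC00473 the means were 35 and 47.1 with RNO, a log2 change of 0.41 against 1.30 without (unadjusted p of the difference 0.00103, limma adjusted p = 1). In TM4SF1 they were 122 and 170, a log2 change of 0.48 against 1.02 (unadjusted p = 0.000703, limma adjusted p = 1). In RGS2 they were 18.7 and 34.3 (log2 change 0.82 against 1.16) and in ZNF331 20.3 and 35.2 (0.75 against 1.12). PPM1D changed by 0.18 in both. With RNO every one of these 4 larger genes started, at 0.1 nM, from a level above that of 1 nM alone.

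**Figure D3:**
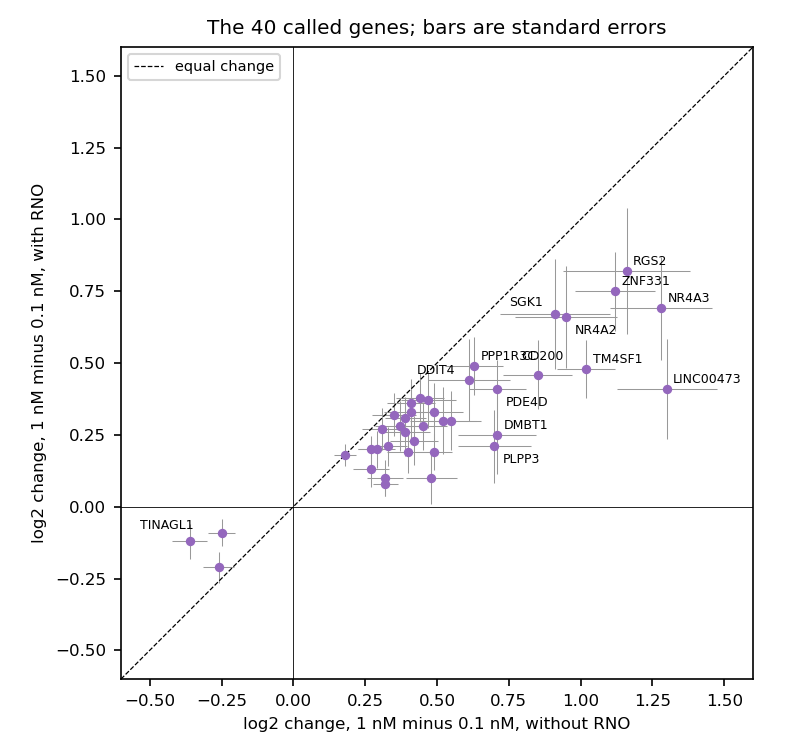
Log2 change of the 40 called genes over the step without RNO (x axis) and with 1 uM RNO (y axis), in 8 different libraries each. Bars are standard errors and the dashed line marks equal changes. All points lie on the same side of 0 on both axes, and 36 of the 37 genes that rose lie below the line.

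The size of the step was set against the response to 1 uM ONO-AE1-329 over vehicle, in libraries that the step does not use. The vehicle group holds replicate 3, which stood apart, and the response was not recomputed without it. All 40 genes were called in that response in the same direction (7.21% of all genes were called in either direction, 4.19% higher and 3.02% lower). Of the 52 genes that rose at least 2-fold at 1 uM, 25 rose over the step, 39 with the replicate block, 51 had a log2 change above 0, and 41 were higher without overlap. Over all genes tested these shares were 0.294%, 0.89%, 51.1% and 1.59%. The median log2 change of the 52 over the step was 0.47. The median of the ratio to the change at 1 uM was 36%, with quartiles of 29.8% and 41.4%. By pairs of equally numbered libraries the median was 37.4%, 35.8%, 38.3% and 27.7%. The share was 60% in IL11, 46.9% in LINC00473, 46.4% in TM4SF1, 32% in NR4A3 and 8.26% in NPTX1. With RNO the median over the same 52 genes was 23.3%, and the step was larger without RNO in 46 of them. Of the 52, 8 had an unadjusted p of the difference under 0.05 by limma (1.35% of all genes). Of the 7 genes that fell at least 2-fold at 1 uM none was called over the step by limma (0.0238% of all genes were called lower). With the block 3 (EGR1, FOSL1 and RGS4) were called (0.318% lower). The median log2 change of the 7 was -0.34, and 6 of 7 were below 0 (48.9% of all genes). PGBD3 and SNORA44 were the exceptions in sign.

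**Figure D4:**
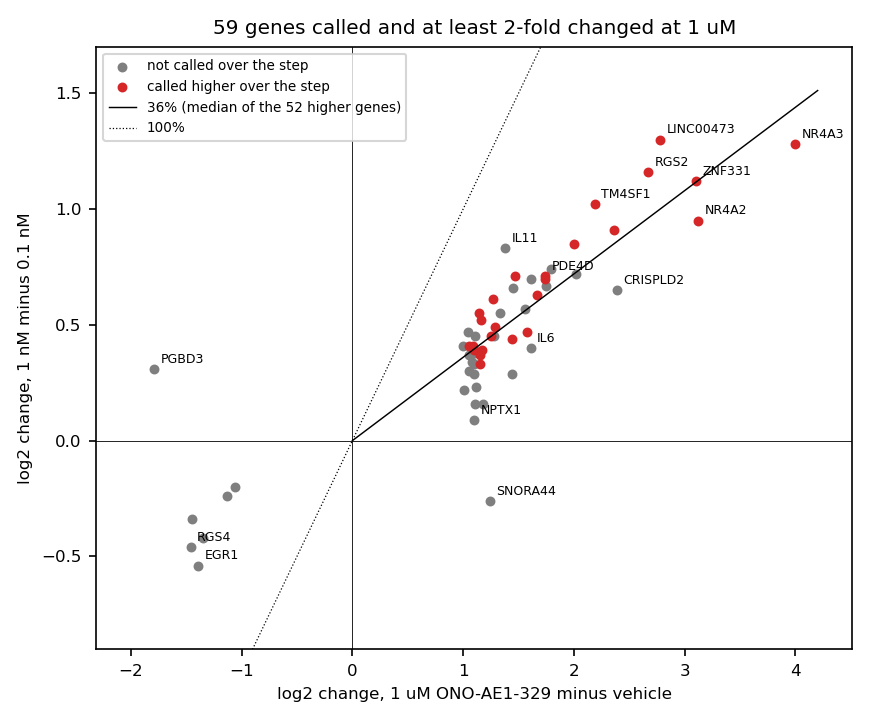
Log2 change over the step against log2 change of 1 uM ONO-AE1-329 over vehicle for the 52 genes that rose and the 7 that fell at least 2-fold at 1 uM. Red points are the 25 called over the step, the solid line marks the median share of 36%, and the dotted line 100%. NR4A3 is at the far right with a change of 1.28 over the step.

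The next step, from 1 nM to 1 uM, covers a wider range of concentration and shares the 1 nM libraries with the first, so the values are given side by side. It had 266 called genes (2.11%), 211 higher (1.68%) and 55 lower (0.437%), or 694 with the replicate block (5.51%). NR4A3 changed by 1.28 over the first step and 2.56 over the next, ending at 36.2 TPM. NR4A2 changed by 0.95 and 2.01, ZNF331 by 1.12 and 1.86 and KRT17 by 0.47 and 1.12. In LINC00473 the 2 changes were 1.30 and 1.31 and in TM4SF1 1.02 and 1.19. A few genes changed over the first step and showed no call over the next: WNT5A (0.32, then 0 with means of 8.21 and 8.2), TCF21 (0.48, then 0.12), FGF9 (0.35, then 0.2) and TINAGL1 (-0.36, then -0.11). Limma's test of the difference between the steps called no gene (309, or 2.45%, had an unadjusted p under 0.05, and 4 were called with weights per library). Unadjusted p-values of that difference were 0.00512 for WNT5A and 0.0261 for TCF21, by limma. Both were picked for a call over the first step and none over the next. The 1 nM libraries enter both steps, so this choice favours small p-values. With the replicate block 33 genes were called (0.262%), 31 with a larger next step (0.246%) and 2 with a smaller one (0.0159%). The highest were NR4A3 (difference 1.28), CRISPLD2 (1.02), NPTX1 (0.86), RAB3A (0.86) and CASP9 (0.8), and the 2 lowest SLC35E2 (-0.4) and ZFP62 (-0.37). Among the 40, KRT17 and GPCPD1 were also called there (block adjusted p = 0.0124 and 0.00858).

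**Figure D5:**
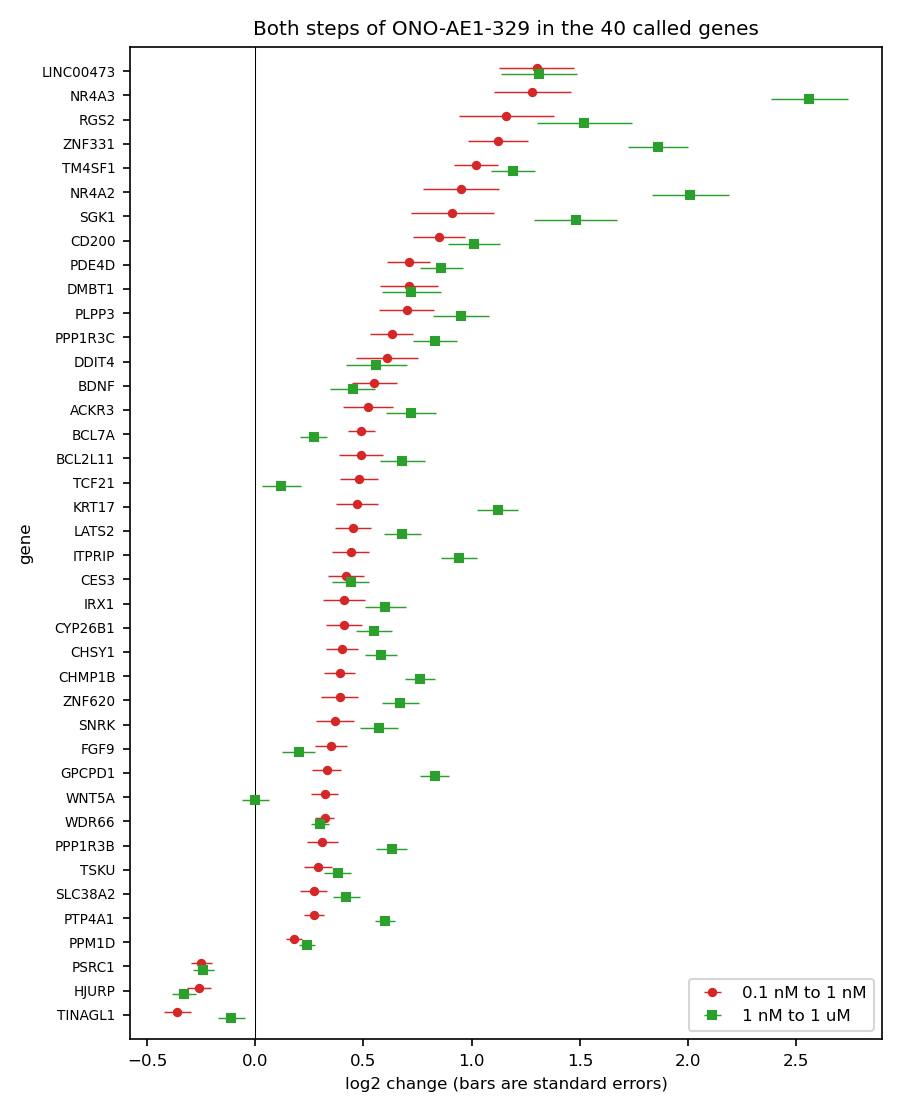
Log2 changes of the 40 called genes over the step from 0.1 nM to 1 nM (red circles) and from 1 nM to 1 uM (green squares), with standard errors as bars. The steps share the 1 nM libraries. NR4A3 changed by 1.28 and 2.56, and WNT5A by 0.32 and 0.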

How the data were processed

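Polyadenylated RNA of the 40 libraries was sequenced on a NextSeq 500 across 2 kits, per the labels' protocols, which do not say which library went with which kit, so values within a kit could not be computed. The submitters' processing notes name bcl2fastq 2.18.0.12, kallisto, sleuth, GRCh37 and hg19. The version of either kallisto or sleuth was not given in the sources used here. Deposited by the authors was a normalised signal, TPM adjusted between libraries, for 15788 genes. Of these, 69 entries name more than 1 symbol. Values were taken as log2(value + 1) for 12591 genes, those whose mean over all libraries was at least 1. Limma 3.58.1 in R 4.3.3 fitted 1 mean per group of 4 over the 40 libraries in 10 groups (30 residual degrees of freedom), with an intensity trend and Benjamini-Hochberg adjustment over all genes. ± is SD for levels and SE for log2 changes.

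Replicate numbers in the titles pair the libraries: deviations of equally numbered libraries correlated at 0.19 to 0.46 (0.15 to 0.48 with RNO), and of others at -0.33 to 0.09. The fit with the number as a block is therefore given where it changes a call of a named gene over the step without RNO. Groups and gene lists were chosen with earlier results of these data known. Named genes are the 12 highest and lowest called genes without overlap, called list members, PTGER4, and the PDE4 and NR4A genes. The other called genes and members called only with the block were named after their values were seen. The alternatives tried were the pseudocount, the filter, scaling, weights, the libraries fitted and leaving out each library. The result of 1 gene is not reported here.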

Additional observations from a re-analysis of the deposited data

Results flagged for a closer look

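In 5 of 102 groups of 4 libraries (51 genes, 4.9%) 1 library stood far from the other 3, by Dixon's ratio at the 95% level. Chance gives about 1 in 20. All 5 genes had groups without overlap over the step (2.57% of all genes tested). The 51 genes included the 40 called, all of which had such groups, so this was largely set by the choice of genes. BCL2L11 was 10.6 in replicate 1 at 0.1 nM and 7.88 to 8.16 in the others. SGK1 was 19.5 in replicate 3 at 0.1 nM and 17.2 to 17.4 in the others. NR4A2 was 2.11 in replicate 3 at 1 nM and 2.64 to 2.71 in the others. PDE4B was 1.92 in replicate 2 at 1 nM and 2.32 to 2.35 in the others. PPP1R3B was 2.66 in replicate 4 at 0.1 nM and 2.92 to 2.95 in the others.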

How the results depend on the processing

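The step called 40 genes (37 higher, 3 lower). The replicate block gave 152 (112 and 40). Equal library totals gave 23 (20 higher), with the median of all genes at -0.023. Weights per library gave 63 (8 lower). Fitting only the groups compared gave 19 (19 and 0), and adding the block to that, chosen after seeing the data, gave 62 (7 lower). Leaving out 1 library gave 25 to 40 (23 to 36 higher, 2 to 4 lower), and 50 (46 higher) without replicate 3 of the vehicle. With RNO the count of 0 became 3 with a pseudocount of 2, 2 with a minimum mean of 5, 1 with equal medians, 11 with weights, 65 with the block, and 0 to 11 without 1 library (11 without replicate 1 of 1 nM + RNO, 2 without replicate 3 of 0.1 nM + RNO). The next step gave 694 with the block and 203 to 235 without 1 library. The difference of the steps gave 33 with the block, 4 with weights and 0 to 3 without 1 library. The test of the difference with RNO gave 0 in each case run without 1 library. The median share of the change at 1 uM was 28.9% over all genes that rose at 1 uM at any size. The log2 change of PTGER4, -0.06, lay between -0.12 and 0.03 (without replicate 1 at 0.1 nM), and that of PDE4A, -0.05, between -0.09 and 0.01 (without replicate 3 at 1 nM), and neither was called. Of the 40 genes, 26 lost the call in at least 1 of 20 alternatives, and none changed sign. The cause was not tested. Among the genes named, the block changed no call over the step without RNO other than those given. For the difference of the steps it also called CD24, CREM and NFIL3 (limma block adjusted p = 0.00313, 0.0165 and 0.0476). Over the step with RNO it called 21 of the 37 genes that rose without RNO. No counts were analysed, so what depth limits is unknown.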
